A study of Mus musculus with 12 samples.

Results

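The unfolded protein response and its endoplasmic reticulum (ER) chaperones were followed as a set of 32 named genes in mouse liver RNA. The genes were taken by symbol from a table of 16970 genes: 30 matched directly, and Ero1l and Ero1lb were found through RefSeq synonyms under their present symbols Ero1a and Ero1b. The rule is a list of names and holds no threshold on expression. All 32 passed the filter on low values, which asked for 3 or more of the 12 libraries with an FPKM no lower than 1, and were tested among 10805 genes. FPKM is a fragment count divided by gene length and library depth, so levels are per length.

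The ER folds proteins that enter the secretory pathway, and in the liver hepatocytes use it to make most of the proteins of plasma. When unfolded protein builds up, the membrane sensors IRE1 (Ern1), ATF6 and PERK (Eif2ak3) start the unfolded protein response. IRE1 splices the messenger RNA of Xbp1, and XBP1 and cleaved ATF6 turn on genes for chaperones and for ER-associated degradation (ERAD), the export and destruction of misfolded protein. PERK slows translation and raises ATF4, and Ppp1r15a encodes the phosphatase subunit that restores translation.

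Libraries came from 2 models of cholestasis, in which the formation or flow of bile is impaired, with 3 libraries in each of 4 groups. BDL livers had their bile duct ligated for 7 days, and BDL_H livers had the same ligation with the bile acid hyodeoxycholic acid (HDCA) at 100 mg/kg for 4 days that began 3 days after surgery. MDR and MDR_H are read as the Abcb4-/- mice of the series design, 60 days old, without HDCA and with 100 mg/kg for 21 days. Abcb4 encodes the canalicular pump for phosphatidylcholine, and no label of an MDR library names it. Healthy livers were not analysed here, so nothing below compares cholestasis with its absence. The labels do not say that replicates were separate animals. The p-values therefore reflect variation between libraries, possibly technical. In bulk tissue, fewer cells of a type and less RNA per cell cannot be told apart, and gene-level FPKM cannot show Xbp1 splicing or sensor activity.

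Recovered reads numbered 34260782 to 40427855 per library, and the hepatocyte markers had the highest sum of all 10 marker lists in every library, as liver tissue has. Abcb4 itself stood at 52.8 to 178 FPKM in BDL and BDL_H and at 129 to 181 FPKM in MDR and MDR_H, so it was not lower in the groups read as the knockout. Y-linked transcripts summed to 16.1 to 20.1 FPKM in all BDL and BDL_H libraries and in MDR replicate 1, and to at most 0.0160 FPKM in the other 5 MDR and MDR_H libraries. The models therefore also differ in apparent sex by these transcripts, with MDR replicate 1 as the exception. Model, surgery, age, duration and apparent sex cannot be told apart in the comparisons between models below. BDL replicate 1 and BDL_H replicate 2 stood apart, with a median log2(FPKM + 1) over tested genes of 2.48 and 2.56 against 2.81 to 3.06 in the other 10 libraries. Several results that rest on them are given with and without them, and the other values are from all libraries.

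XBP1 and ATF6 are known to act through short promoter sequences, the ER stress elements. The members' promoters are shown first. The genes were listed by name and not by these letters. The list and the motifs are still not independent, since many members are known targets of these factors. RefSeq promoters (build GRCm38.p6, 250 bases before to 50 bases after the transcription start) were found for 27 of the 32 members and searched on both strands. The ER stress element (ERSE), CCAAT and CCACG with 9 free bases between them, was present in 10 of the 27 members (37.0%) and in 0.137% of all 27025 genes with a promoter. ERSE-II, ATTGG and CCACG with 1 free base between them, was present in 2 of the 27 (7.41%), Herpud1 and Dnajb11, and in 0.0444% of all genes. The unfolded protein response element in its form TGACGTGG was in none of the 27 and in 0.714% of all genes. The letters CCACG are part of both ERSE and ERSE-II, and each match here is a run of letters, not a shown binding site. Many of the members are textbook targets of ATF6 and XBP1, so their share of matches is a description of the set.

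The matches are given below in the 5′ to 3′ direction of the motif, one for each holder and both for Hsp90b1, because they are the sequence feature that the holders share. In ERSE the capitals mark the invariant flanks CCAAT and CCACG and lower case the free spacer, and ERSE-II is in capitals throughout.
Hspa5: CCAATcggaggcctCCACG
Hsp90b1, distal: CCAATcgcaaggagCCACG
Hsp90b1, proximal: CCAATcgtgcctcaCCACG
Dnajc3: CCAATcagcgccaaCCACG
Creld2: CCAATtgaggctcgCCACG
Calr: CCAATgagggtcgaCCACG
Canx: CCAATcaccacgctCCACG
Pdia6: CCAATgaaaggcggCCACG
Ero1b: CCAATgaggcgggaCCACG
Syvn1: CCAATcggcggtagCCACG
Derl3: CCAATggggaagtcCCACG
Herpud1, ERSE-II: ATTGGGCCACG
Dnajb11, ERSE-II: ATTGGCCCACG

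No spacer occurred more than once in this set. The matches of Hspa5, Dnajc3, Canx, Pdia6, Syvn1, Herpud1 and Dnajb11 lay on the gene's strand, those of Creld2, Calr, Ero1b and Derl3 on the other, and Hsp90b1 had one of each.

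The 250 bases before the RefSeq start are shown for Herpud1, the member with the largest difference between the models, and for Creld2, an ERSE holder that did not pass the test in any comparison. Both are written on the gene's strand, which is the plus strand, and the capitals mark the match. The Herpud1 window is chr8:94386179-94386428 and the Creld2 window is chr15:88819396-88819645.
Herpud1: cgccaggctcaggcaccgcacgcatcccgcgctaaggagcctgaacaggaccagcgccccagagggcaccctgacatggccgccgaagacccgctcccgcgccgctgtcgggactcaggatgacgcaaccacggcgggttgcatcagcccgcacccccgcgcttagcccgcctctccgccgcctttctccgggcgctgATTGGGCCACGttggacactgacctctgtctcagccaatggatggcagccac
Creld2: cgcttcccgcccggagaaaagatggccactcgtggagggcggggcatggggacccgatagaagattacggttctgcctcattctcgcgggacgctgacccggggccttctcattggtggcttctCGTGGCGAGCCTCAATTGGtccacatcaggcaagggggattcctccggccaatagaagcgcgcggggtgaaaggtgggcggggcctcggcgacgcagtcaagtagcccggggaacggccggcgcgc

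The Herpud1 match begins at position -52 from the start, and the Creld2 match begins at position -126 and reads as CCAAT to CCACG on the opposite strand. Dnajb9 had no match in its window, but the GENCODE model of that gene begins 258 bases upstream of the RefSeq start, beyond the window.

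**Figure D1:**
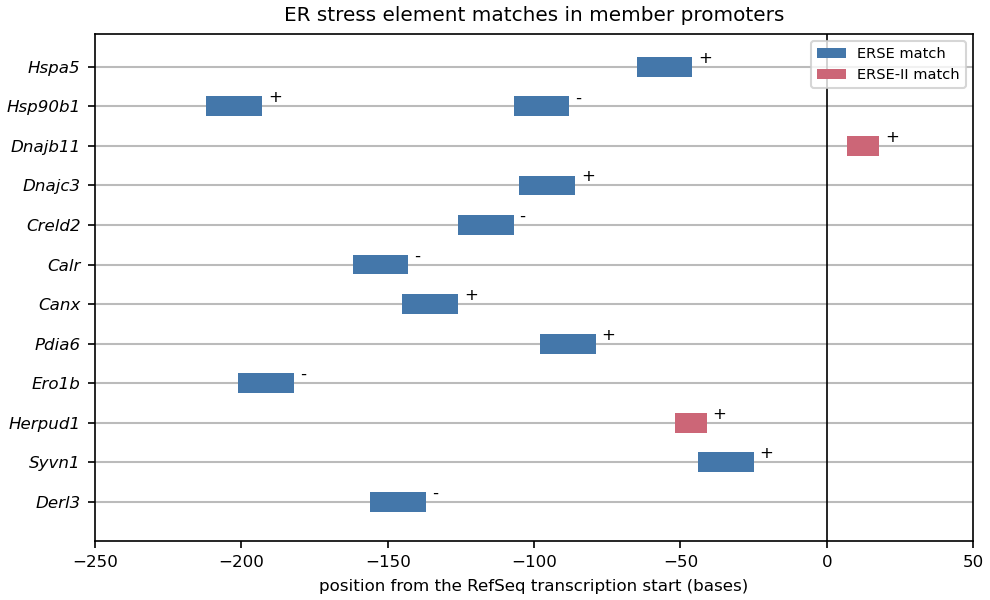
Positions of ERSE matches (blue) and ERSE-II matches (red) in the promoters of the 12 members that hold one, in bases from the RefSeq transcription start (vertical line), with the match's strand relative to the gene. Matches begin between position -212 (Hsp90b1) and position 7 (Dnajb11).

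Per length, the set spanned 2 orders of abundance and was led by the chaperones of the ER lumen. Calr (calreticulin, a lectin chaperone that binds glycoproteins) had the highest median over the 12 libraries, 608 FPKM. Hsp90b1 (GRP94) followed with 349 FPKM and Hspa5 (BiP, the main ER chaperone) with 312 FPKM, and the ranges of these neighbours overlapped, 198 to 471 and 173 to 387 FPKM. Pdia3, a disulfide isomerase that works with calreticulin and calnexin, had a median of 234 FPKM. The sensors were far below: Ern1 and Atf6 had medians of 11.1 and 12.1 FPKM and Eif2ak3 of 6.56 FPKM. The lowest member was Derl3, a derlin of the ERAD channel, with 2.67 FPKM and as few as 27 recovered reads in a library.

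The libraries of the ligation model varied most for these genes. In BDL replicate 1 the members' median deviation from each gene's mean was -0.55 on the log2 scale, against -0.31 for all tested genes. That library held the lowest of the 12 values for 22 of the 32 members, compared with 42.7% of all tested genes. In BDL_H replicate 2 the median deviation was -0.27 for the members and -0.29 for all genes, and 4 members were lowest there (30.3% of all genes). The median SD between replicates was 0.41 for members and 0.22 for all genes in BDL, 0.27 and 0.20 in BDL_H, 0.14 and 0.14 in MDR, and 0.14 and 0.15 in MDR_H.

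Luminal folding genes were among the members farthest below their mean in BDL replicate 1. Sdf2l1, a partner of BiP, stood at 9.09 FPKM there against 42.1 and 47.9 in the other BDL replicates. Creld2, an ER-stress-inducible luminal protein, was at 11.2 against 42.6 and 31.5 FPKM, and Manf, which binds BiP, at 56.3 against 169 and 156 FPKM. Not all members followed. Herpud1 was at 245 FPKM in this library and 243 and 220 in the other BDL replicates, and Ppp1r15a was at 9.60 FPKM, its highest value of the 12. The recovered reads of this library, 39113086, were not low.

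**Figure D2:**
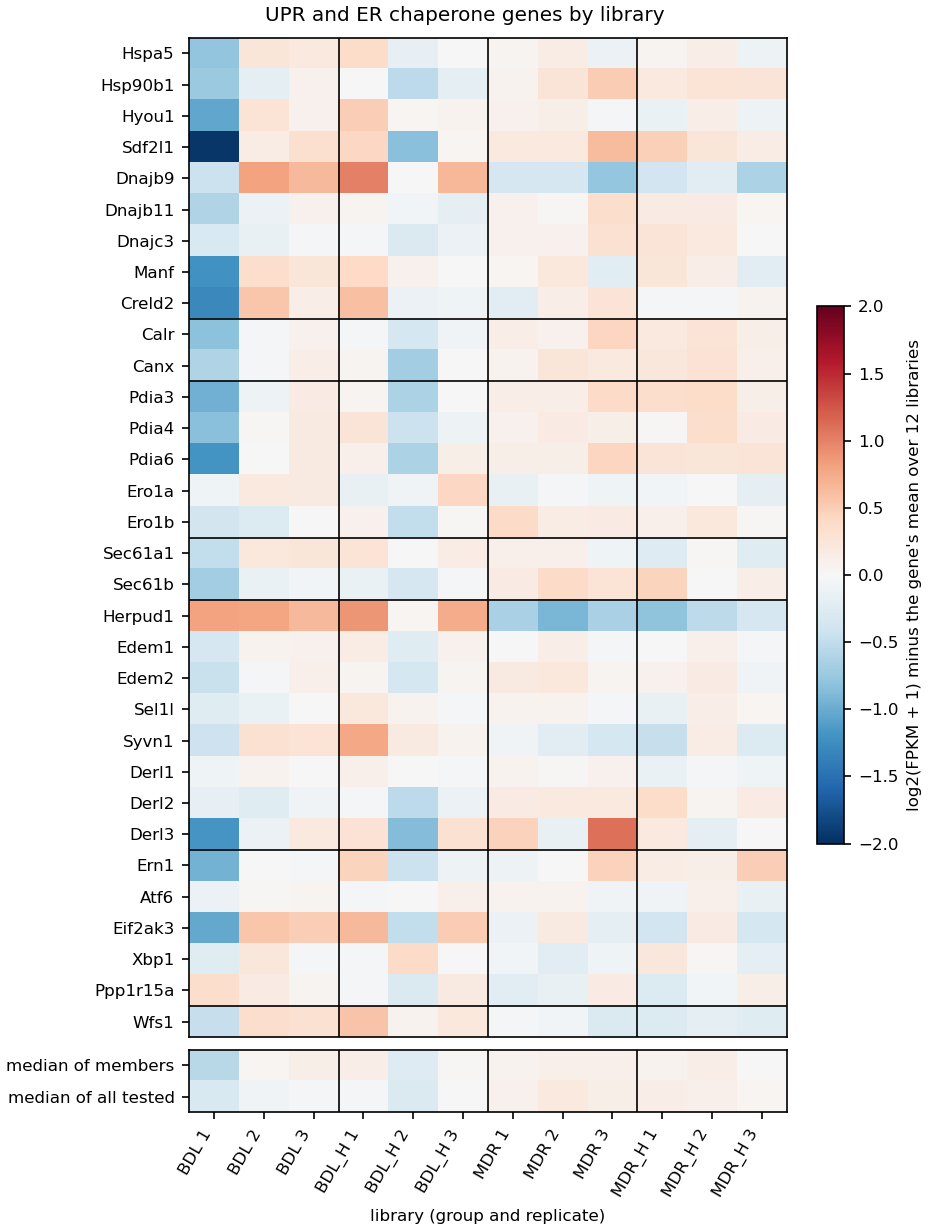
Heat map of the 32 members (grouped by role from chaperones at the top through lectin chaperones, disulfide enzymes, translocon, ERAD, sensors and signals to Wfs1) in the 12 libraries, as log2(FPKM + 1) minus the gene's mean over the libraries, with the medians of members and of all tested genes below. BDL replicate 1 is blue for 30 of 32 members, while Herpud1 is red in 5 of the 6 BDL and BDL_H libraries, near white in BDL_H replicate 2 and blue in all 6 MDR and MDR_H libraries.

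The comparison between models without HDCA asked which members differed between MDR and BDL livers. Herpud1, which encodes a membrane protein that organises the ERAD ubiquitin ligase complex, was the only member called, at an adjusted p under 0.05 in limma. Of all tested genes, 1.07% were called lower and 15.1% higher, so 1 lower and 0 higher of 32 members is not a large share in either direction.

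Herpud1 (GRCm38 chromosome 8, 94386438 to 94395377, plus strand) stood at 245, 243 and 220 FPKM in BDL (236 ± 13.8, SD, n = 3) and at 89.4, 74.1 and 89.0 FPKM in MDR (84.2 ± 8.75, SD, n = 3). Every MDR library lay below every BDL library, and BDL replicate 1, low for most members, was not low for this gene. The mean FPKM was 2.81-fold lower in MDR, with a log2 change of -1.48 ± 0.21 (SE) and a limma adjusted p of 0.00268. The median log2 change of all tested genes in this comparison was 0.25, and relative to it Herpud1 was at -1.73. MDR replicate 1, the Y-positive library of that model, was at 89.4 FPKM, the highest of the 3 MDR values. The other MDR replicates were at 74.1 and 89.0 FPKM and the lowest BDL value was 220 FPKM. This is 1 library, and the part of apparent sex in the difference was not tested. The antisense-strand gene Gm15890 overlaps Herpud1 and is not in the table, and whether counting used strand is not given in the sources used here.

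The same comparison under HDCA used 6 other libraries. Herpud1 was at 261, 144 and 234 FPKM in BDL_H (213 ± 61.4, SD, n = 3) and at 80.0, 97.1 and 111 FPKM in MDR_H (95.9 ± 15.3, SD, n = 3). The groups again did not overlap, and the lowest BDL_H value came from replicate 2. Its log2 change was -1.11 ± 0.21 (SE), with a limma adjusted p of 0.0139, and -1.31 relative to the all-gene median of 0.20. It was again the only member called, against 0.935% of tested genes called lower and 7.36% called higher. Across both comparisons all 6 MDR and MDR_H libraries lay below all 6 BDL and BDL_H libraries for Herpud1, a pattern that 1.21% of tested genes showed.

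Herpud1 was called between MDR and BDL in all 23 settings tried, with log2 changes from -1.85 to -1.39. Between MDR_H and BDL_H it was called in 21 of 23, from -1.38 to -0.94. The call was lost without MDR_H replicate 1 (limma adjusted p = 0.0520) and without MDR_H replicate 2 (limma adjusted p = 0.0510), where the log2 changes were -0.99 and -1.12.

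**Figure D3:**
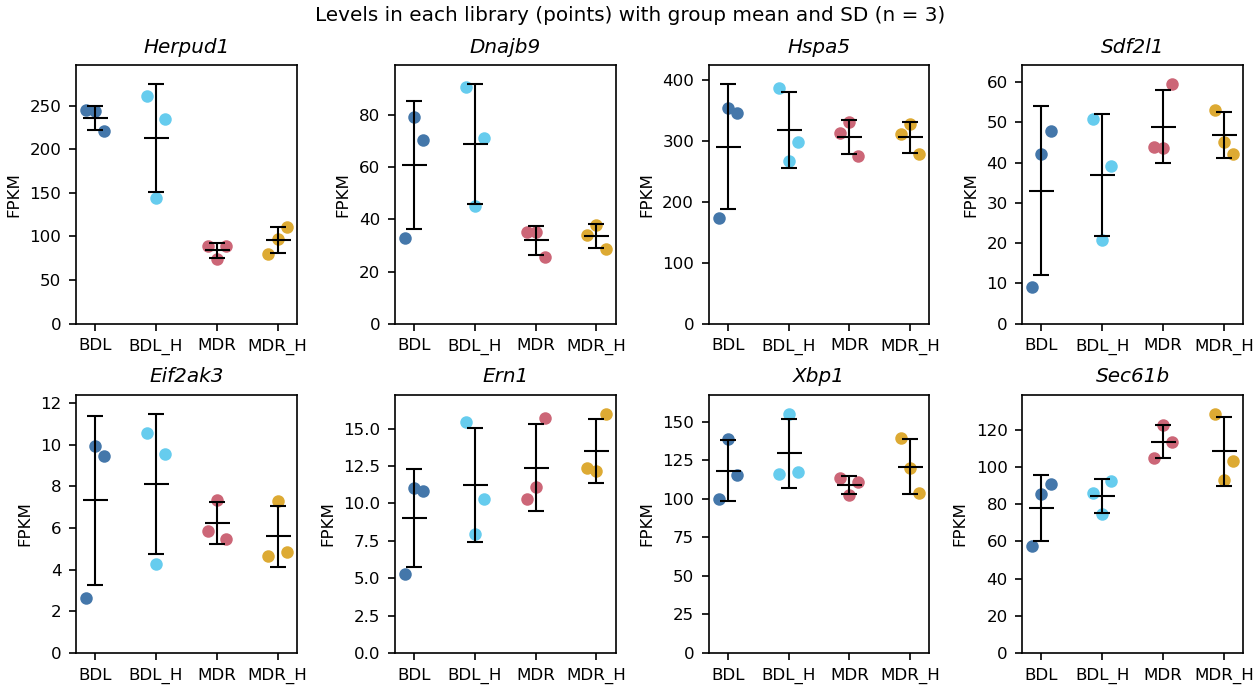
FPKM of 8 members in each library (points, replicates 1 to 3 from left to right within a group), with the group mean and SD (n = 3). Herpud1 is between 74.1 and 111 FPKM in MDR and MDR_H and between 144 and 261 FPKM in BDL and BDL_H, while Hspa5, Xbp1 and the sensors overlap between the models.

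Among the chaperones, Dnajb9 (ERdj4, a BiP co-chaperone that also binds IRE1) had the lowest log2 changes in both comparisons, and among all members only Herpud1 was lower. It stood at 32.9, 79.2 and 70.7 FPKM in BDL and at 35.1, 35.3 and 25.6 FPKM in MDR. With HDCA it was at 90.6, 45.0 and 71.1 FPKM in BDL_H and at 34.0, 37.9 and 28.6 FPKM in MDR_H. BDL replicate 1 lay within the MDR range, and the treated groups did not overlap. The log2 changes were -0.83 ± 0.32 (SE; limma adjusted p = 0.0963) and -0.97 ± 0.32 (SE; limma adjusted p = 0.0815), so neither was called. Dnajb9 was called in both comparisons without BDL replicate 1, without both libraries that stood apart, with array weights, and under both alternative scalings, with log2 changes of -1.37 to -1.06 and -1.28 to -1.18 in the last 4 of these.

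The other 8 chaperones had positive changes between MDR and BDL, none of them called, and this direction did not hold in all settings. Of all 9 chaperones, 8 were positive with all libraries, 3 under median-of-ratios scaling and 4 with both libraries that stood apart left out, where Hspa5 was at -0.19, Hyou1 at -0.12, Manf at -0.29 and Creld2 at -0.27. Hspa5 stood at 173, 354 and 345 FPKM in BDL, at 313, 330 and 275 FPKM in MDR, at 387, 267 and 298 FPKM in BDL_H, and at 311, 328 and 278 FPKM in MDR_H. All 4 groups overlapped, and the model differences were 0.14 ± 0.25 and -0.04 ± 0.25 on the log2 scale (SE; limma adjusted p = 0.691 and 0.930). Dnajc3, a luminal co-chaperone of BiP, was at 35.7 to 43.2 FPKM in the 6 BDL and BDL_H libraries and at 45.0 to 55.2 FPKM in the 6 MDR and MDR_H libraries. The models thus did not overlap for Dnajc3, with log2 changes of 0.32 ± 0.12 and 0.31 ± 0.12 (SE; limma adjusted p = 0.0874 and 0.128), not called. Hyou1, an exchange factor for BiP, was at 16.2, 41.7 and 36.6 FPKM in BDL, 48.7, 35.5 and 36.2 in BDL_H, 36.7, 37.5 and 33.8 in MDR, and 31.5, 37.9 and 32.2 in MDR_H, with overlap throughout.

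Over the 9 chaperones the median log2 change was 0.29 between MDR and BDL, near the all-gene 0.25, and -0.04 between MDR_H and BDL_H, where all genes were at 0.20. The first median turned to -0.07 under median-of-ratios scaling and to -0.12 with both libraries that stood apart left out, and the second was -0.32 and -0.15 in these settings. The lectin chaperones Calr and Canx (calnexin) had log2 changes of 0.47 and 0.33 without HDCA and 0.35 and 0.41 with it, none called. Without HDCA they were at 0.10 and -0.03 under median-of-ratios scaling and at 0.19 and 0.12 with both libraries that stood apart left out. The 5 disulfide enzymes (Pdia3, Pdia4, Pdia6, Ero1a and Ero1b, which form or rearrange disulfide bonds) had medians of 0.44 and 0.27, which were 0.10 and -0.00 under that scaling and 0.13 and 0.10 without those libraries. Ero1a was the exception in direction, at -0.18 and -0.14. No disulfide enzyme was called in either comparison.

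The translocon, through which new proteins enter the ER, gave differing values for its 2 members. Sec61b was at 57.5, 85.3 and 90.9 FPKM in BDL and at 105, 122 and 114 FPKM in MDR, and at 85.9, 74.5 and 92.5 FPKM in BDL_H and 129, 93.2 and 103 FPKM in MDR_H. Every MDR and MDR_H library lay above every BDL and BDL_H library, though MDR_H replicate 2 did so narrowly. The Sec61b log2 changes of 0.56 ± 0.18 and 0.35 ± 0.18 (SE; limma adjusted p = 0.0550 and 0.227) were not called. With both libraries that stood apart left out they were 0.36 and 0.27. Sec61a1, the channel itself, was at 41.4, 68.4 and 69.6 FPKM in BDL, 71.2, 59.1 and 65.5 in BDL_H, 63.3, 63.0 and 55.3 in MDR, and 48.9, 60.2 and 49.6 in MDR_H. Its groups overlapped between the models in both comparisons, with log2 changes of 0.05 and -0.30.

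Apart from Herpud1, the ERAD genes split in direction. Derl2, a derlin of the export channel, was at 16.5, 15.6 and 17.7 FPKM in BDL and 18.2, 12.6 and 17.2 in BDL_H, below every value of MDR (21.1, 21.6 and 21.6) and MDR_H (24.4, 19.5 and 21.0). Its log2 changes were 0.35 ± 0.14 and 0.42 ± 0.14 (SE; limma adjusted p = 0.103 and 0.0810), not called. Syvn1 (HRD1), the ubiquitin ligase that Herpud1 organises, had log2 changes of -0.26 ± 0.24 and -0.54 ± 0.24 (SE; limma adjusted p = 0.433 and 0.166). Sel1l, the adaptor of that ligase, was at 19.2, 20.8 and 22.8 FPKM in BDL, 26.6, 24.0 and 22.4 in BDL_H, 24.1, 24.2 and 22.5 in MDR, and 20.6, 25.2 and 23.6 in MDR_H. The gene models of Derl2 and Syvn1 overlap those of Mis12 and Mrpl49, which are also in the table, and reads in the shared stretches cannot be told apart without strand. The Sel1l groups overlapped, as did those of the mannose-trimming lectins Edem1 and Edem2, whose log2 changes ran from 0.03 to 0.27. Under median-of-ratios scaling all 4 of these values were negative, from -0.26 to -0.09, and 1 of the 8 ERAD genes was positive between MDR and BDL, where 6 had been.

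Derl1 was at 38.6, 43.3 and 40.9 FPKM in BDL, 44.0, 41.2 and 39.7 in BDL_H, 43.3, 41.4 and 43.5 in MDR, and 37.1, 40.5 and 38.6 in MDR_H, and the models overlapped. Derl3 was at 0.513, 2.17 and 2.92 FPKM in BDL, 3.20, 0.895 and 3.25 in BDL_H, 3.72, 2.11 and 6.39 in MDR, and 2.95, 1.99 and 2.41 in MDR_H. Its log2 changes were 0.84 ± 0.42 and 0.08 ± 0.42 (SE; limma adjusted p = 0.174 and 0.911). With both libraries that stood apart left out they were 0.43 and -0.30. The highest Derl3 value, in MDR replicate 3, came from the library with the highest summed plasma cell markers, 16.8 FPKM. These sums ranged from 0.460 to 1.59 FPKM in BDL and BDL_H, yet Derl3 was at 3.20 and 3.25 FPKM in BDL_H replicates 1 and 3. MDR_H replicate 3 had a sum of 13.5 FPKM and Derl3 at 2.41 FPKM. Of 10 plasma cell markers 5 were in the table, 4 of them under 1 FPKM in every library, and their part in the Derl3 value was not tested.

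Beside Herpud1 on the lower side, the members whose 6 MDR and MDR_H libraries all lay above the 6 BDL and BDL_H libraries were Dnajc3, Derl2 and Sec61b, 3 of 32, where 19.4% of tested genes showed this. Without HDCA 4 members were higher in MDR with no overlap (Dnajc3, Derl2, Sec61b and Ero1b), and 39.2% of tested genes were. With HDCA 8 were higher (Calr, Canx, Derl2, Dnajc3, Hsp90b1, Pdia3, Pdia6 and Sec61b, against 32.4% of genes) and 3 were lower (Herpud1, Dnajb9 and Wfs1, against 4.55%). The members' share on the higher side was below the background in each case. Under median-of-ratios scaling, Dnajc3 and Derl2 were at -0.04 and -0.00 between MDR and BDL, so their direction there depended on the scaling, while Sec61b went from 0.56 to 0.20 and kept its sign.

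None of the sensors and signal genes was called between the models. Ern1 was at 5.28, 11.0 and 10.8 FPKM in BDL, 15.5, 7.98 and 10.3 in BDL_H, 10.3, 11.1 and 15.7 in MDR, and 12.4, 12.2 and 16.0 in MDR_H. Among the sensors Atf6 varied least, from 10.6 to 12.9 FPKM over all 12 libraries. Eif2ak3 was at 2.65, 9.91 and 9.43 FPKM in BDL, 10.6, 4.29 and 9.53 in BDL_H, 5.85, 7.35 and 5.44 in MDR, and 4.67, 7.28 and 4.82 in MDR_H. In both groups of the ligation model the low Eif2ak3 value was in the library that stood apart. With all libraries its log2 changes were -0.06 ± 0.40 and -0.41 ± 0.40 (SE; limma adjusted p = 0.929 and 0.524), and with both such libraries left out they were -0.57 and -0.77 (limma adjusted p = 0.0417 and 0.0236).

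Xbp1 was at 99.8, 139 and 116 FPKM in BDL, 116, 155 and 117 in BDL_H, 113, 102 and 111 in MDR, and 139, 120 and 104 in MDR_H. Ppp1r15a was at 9.60, 8.31 and 7.65 FPKM in BDL, 7.18, 5.80 and 8.47 in BDL_H, 6.15, 6.53 and 8.30 in MDR, and 5.89, 7.07 and 8.03 in MDR_H. The models overlapped for both genes, and their log2 changes ran from -0.26 to -0.02. Wfs1, the ER membrane protein wolframin, had log2 changes of -0.19 ± 0.21 and -0.51 ± 0.21 (SE; limma adjusted p = 0.517 and 0.132). With both libraries that stood apart left out, Wfs1 had log2 changes of -0.45 and -0.62 and was called in both (limma adjusted p = 0.0324 and 0.0165).

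**Figure D4:**
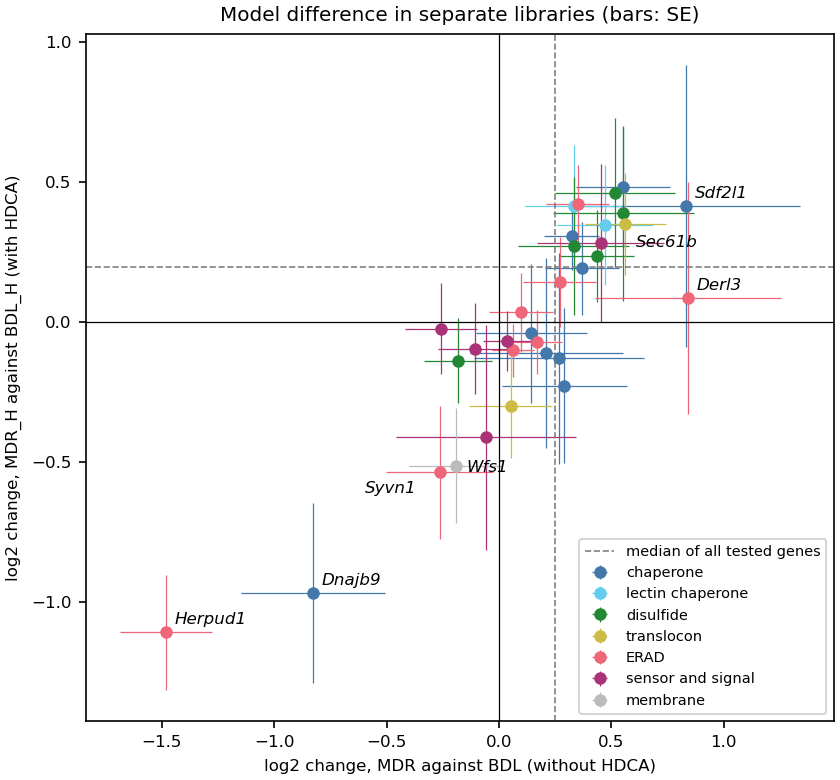
Log2 change of each of the 32 members between the models without HDCA (horizontal axis) and with HDCA (vertical axis), coloured by role, with SE bars and dashed lines at the median of all tested genes. Herpud1 lies at -1.48 and -1.11 and Dnajb9 at -0.83 and -0.97, and the other members lie between -0.54 and 0.84.

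The comparisons with and without HDCA have no library in common, though their test uses one estimate of spread. Over the 32 members their log2 changes had a Pearson r of 0.88, and over all 10805 genes 0.81, as a description across genes, which are not independent replicates. The sign was the same for 24 of 32 members (75.0%) and for 84.8% of all genes. The median log2 change of members was 0.27 without HDCA (24 of 32 positive) and 0.01 with it (16 of 32 positive). Both moved with the scaling, to -0.09 and -0.25 under median-of-ratios scaling, with 10 of 32 positive in each. The first was 0.02 with 17 of 32 positive when BDL replicate 1 was left out. Between MDR and BDL with all libraries, the 12 holders of an ERSE or ERSE-II match ran from -1.48 to 0.84, with a median of 0.35. The 15 other members with a promoter ran from -0.83 to 0.83, with a median of 0.17, and the ranges overlapped. The median of all tested genes was 0.25. Medians of holders and other members were 0.21 and 0.03 between MDR_H and BDL_H. They were 0.13 and 0.13 in BDL_H against BDL, and -0.01 and 0.00 in MDR_H against MDR. These medians are not given under another scaling.

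With both libraries that stood apart left out, 5 members were called between MDR and BDL: Herpud1, Dnajb9, Eif2ak3 and Wfs1 lower (3.34% of tested genes lower) and Derl2 higher (17.3% higher). Between MDR_H and BDL_H the same 4 were lower (3.34%) and none was higher (8.45%). Array weights, which count noisier libraries less, called 9 members higher and 6 lower between MDR and BDL, where 38.9% of genes were called higher and 6.9% lower. Between MDR_H and BDL_H they called 0 higher and 6 lower, with 20.2% and 5.2% of genes.

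Scaling mattered for the direction of calls in general. Under median-of-ratios scaling 5.92% of genes were higher and 4.5% lower between MDR and BDL, and the members called were Herpud1, Dnajb9 and Ero1a, all lower. In the treated comparison 3.08% were higher and 3.44% lower, and Herpud1, Dnajb9, Wfs1, Syvn1 and Sec61a1 were lower. Under quantile normalization 5.07% of genes were higher and 3.64% lower without HDCA, with Herpud1, Dnajb9, Ero1a and Wfs1 lower. With HDCA 3.52% were higher and 3.14% lower, and Herpud1, Dnajb9 and Wfs1 were lower. No member was called higher under either scaling. The summed hepatocyte markers were 49632 to 60275 FPKM in BDL and BDL_H and 34255 to 49250 FPKM in MDR and MDR_H, with all 8 markers measured. Taken singly, 3 of the 8 had a positive change between MDR and BDL and 1 was called lower. Between MDR_H and BDL_H 2 of the 8 were positive and 0 were called. The summed stellate and fibroblast markers, also 8 of 8 measured, were 56.6 to 192 and 201 to 369 FPKM. Endothelial markers (7 of 7 measured) summed to 23.6 to 116 and 122 to 164 FPKM, and T and NK cell markers (6 of 7 measured) to 0.536 to 1.75 and 4.07 to 6.94 FPKM. Cholangiocyte sums overlapped, with 4 of 6 tested markers called higher in MDR than in BDL. Their part in the member differences was not tested.

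HDCA against none was tested within each model, and no member was called in either. In BDL_H against BDL, 0 of 32 members and 0.0% of the 10805 genes were called by limma in each direction. At an unadjusted p under 0.05, 0 members and 243 genes passed, and limma-voom, run on recovered reads, called 0 as well. In MDR_H against MDR, 0 members and again 0.0% of genes were called, with 0 members and 61 genes at an unadjusted p under 0.05 and 0 called by limma-voom. In the test of the difference between the HDCA effects, 0 members and 0.0% of genes were called, with 0 members and 200 genes at an unadjusted p under 0.05 and 0 by limma-voom.

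In the ligation model the members with the smallest p were Sel1l (log2 change 0.21 ± 0.11, SE), Hyou1 (0.43 ± 0.28) and Ppp1r15a (-0.23 ± 0.16), all with overlapping groups and limma adjusted p = 1.00. Herpud1 was at -0.19 ± 0.21 and Hspa5 at 0.18 ± 0.25 (SE). Without BDL replicate 1, Sel1l was at 0.15, Hyou1 at 0.02, Ppp1r15a at -0.15 and Hspa5 at -0.16, and with both libraries that stood apart left out Herpud1 was at 0.09. Of the 32 members 27 had a positive change, with a median of 0.13 against 0.03 for all genes. Leaving out BDL replicate 1 turned this: 5 of 32 were then positive, with a median of -0.12. With both libraries that stood apart left out, 17 were positive and the median was 0.01. With array weights 0.00925% of genes and 0 members were called higher. The number of members with non-overlapping groups was 0 in both directions, where 3.43% of genes were higher and 1.59% lower.

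In the MDR model the smallest p belonged to Derl1 (-0.14 ± 0.10, SE), Derl3 (-0.47 ± 0.42) and Sec61a1 (-0.20 ± 0.19), all with a limma adjusted p of 1.00. Derl1 was the one member whose groups did not overlap, lower in all 3 MDR_H libraries, as were 4.6% of tested genes, while 0 members and 1.35% of genes were higher. The members' median was -0.01, with 13 of 32 positive, and that of all genes was -0.04; under median-of-ratios scaling 20 members were positive and their median was 0.03. Same-numbered libraries of this model were taken as pairs from the values alone, as no label pairs them. In all 3 pairs Derl1, Derl3, Edem2, Eif2ak3 and Sec61a1 were lower with HDCA and Ern1 higher. The share of all genes with 1 direction in all 3 pairs was not counted, so this is a description only. The fit with the replicate number as a block also called 0 members. Pair 1 sets the Y-positive MDR replicate 1 against a library without Y-linked transcripts above 0.0160 FPKM. Herpud1 was at 0.18 ± 0.21 and Hspa5 at -0.00 ± 0.25 (SE). These SEs come from one spread over all 4 groups, so the BDL and BDL_H libraries also set them. The log2 SD of Hspa5 was 0.58 in BDL and 0.27 in BDL_H, against 0.14 in MDR and 0.12 in MDR_H. The main test in the MDR model may therefore miss differences that are small beside the spread of the ligation model. The differences between HDCA effects with the smallest p were those of Sel1l (-0.24 ± 0.16), Sec61a1 (-0.35 ± 0.26) and Hyou1 (-0.52 ± 0.39, SE), and their median over members changed from -0.16 to 0.13 without BDL replicate 1.

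**Figure D5:**
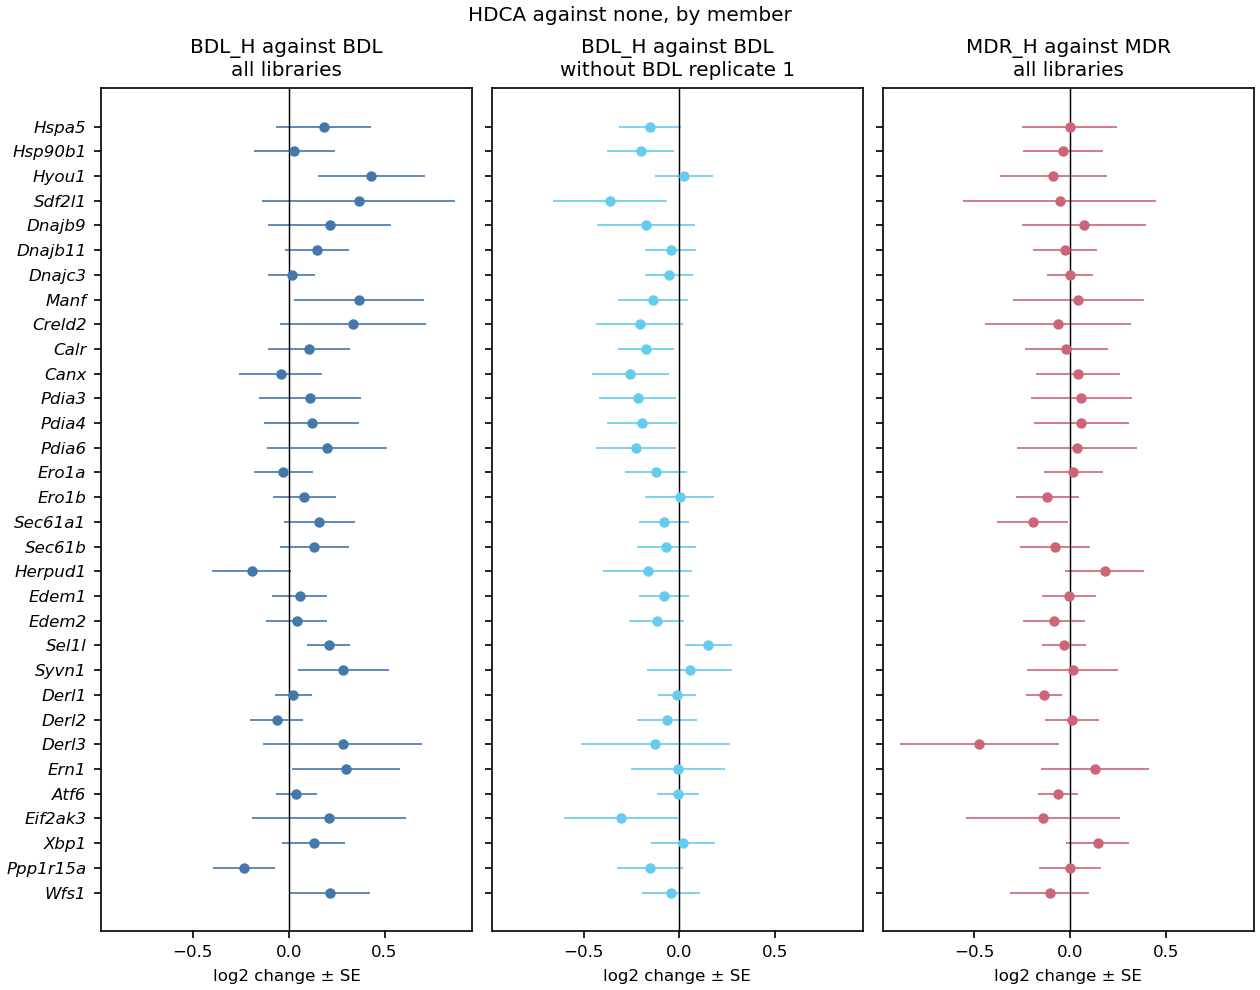
Log2 change with HDCA of each member (point) with its SE (bar), in the ligation model with all libraries, in the ligation model without BDL replicate 1, and in the MDR model. In the left panel 27 of 32 points lie above 0, in the middle panel 5, and in the right panel 13.

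Other genes of the pathway were counted in 6 lists of known function, with all libraries in the fit. The lists were chosen with earlier results of these data known, so their shares are descriptions and not independent support. Counts for these lists under other scalings, or without the libraries that stood apart, are not given here. Among 24 tested targets of ATF4 and CHOP, the transcription factors downstream of PERK, 5 were lower in MDR than in BDL and 0 higher, where 1.07% of all tested genes were lower and 15.1% higher. The list's median was -0.25 against 0.25 for all genes. Those called were Atf4 itself (log2 change -0.79 ± 0.16, SE; limma adjusted p = 0.0100), Asns, which makes asparagine (-1.95 ± 0.37; limma adjusted p = 0.00826), Chac1, Fgf21 and Cebpb. Only Asns was also called between MDR_H and BDL_H, at -2.01 ± 0.37 (SE; limma adjusted p = 0.0141).

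Genes of ER folding outside the set gave 2 higher and 2 lower of 23 tested between MDR and BDL, against the same 15.1% and 1.07% of all genes. The cargo receptor lectins Lman1 and Lman2 were higher, at 0.33 and 0.36, and the ER proteins Tor1a and Txndc11 lower, at -0.41 and -0.40. Txndc11, a thioredoxin-domain protein, was called in the treated comparison too, at -0.73 ± 0.11 (SE; limma adjusted p = 0.00616). Of 20 other ERAD genes none was called in either comparison. Translocation and N-glycosylation genes gave 1 higher of 23, Magt1, and other regulators of the response gave 2 higher of 19, Creb3l1 and Mbtps1, the protease that cleaves ATF6. These higher shares were below the 15.1% of all genes.

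Of 7 substrates that IRE1 is known to cleave, 4 were higher in MDR than in BDL, against 15.1% of all tested genes: Col6a1, Pdgfrb, Scara3 and Sparc. Pdgfrb and Scara3 were higher also in the treated comparison, where 7.36% of all genes were, at 1.09 ± 0.29 and 0.78 ± 0.21 (SE; limma adjusted p = 0.0457 and 0.0467). Col6a1, Pdgfrb and Sparc are also genes of stellate cells and fibroblasts, and Pdgfrb is itself 1 of the markers summed for them. Those sums differed between the models as given above, and the part of those cells in these values was not tested. None of the 6 lists had a gene called in either HDCA comparison.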

How the data were processed

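Expression in 12 mouse liver libraries was deposited by the authors as 1 table of FPKM values. Per the submitters' processing notes the build was GRCm38 (mm10) and the tools were fastp, CASAVA 1.8, featureCounts 1.5.0-p3, HISAT2 2.0.5 and DESeq2 1.20.0. For their order, annotation release and strand setting, nothing is given in the sources used here. Groups came from the titles. All values were analysed as log2(FPKM + 1), which understates changes of low genes. The 10805 genes that reached an FPKM of 1 in 3 or more libraries were fitted with limma 3.58.1 (R 4.3.3, trend, 4 group means, 8 residual degrees of freedom, two-sided) and adjusted by Benjamini-Hochberg over all of them, with calls at an adjusted p under 0.05. The fit was also run on reads simulated for BDL_H against BDL, drawn independently for each gene and library. That simulation held no library that stood apart, so it does not cover such libraries, and its outcome is not given here. Whole reads were recovered from the FPKM steps for 16968 of 16970 genes (99.99%), within 0.02 of a read.

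The members and gene lists were chosen with earlier results of these data known. Values per library are given for members called in any comparison, the sensors, Hspa5, Xbp1, Ppp1r15a and the 3 members with the smallest p in each comparison. Those of Sdf2l1, Creld2 and Manf were chosen after they were seen. From each pathway list up to 4 genes with the smallest p were named, and others are named only where a call was counted. Same-numbered MDR and MDR_H libraries deviated together (correlations 0.44, 0.31 and 0.55) and were taken as pairs from the values alone, with the replicate block as an alternative to the fit reported; those of BDL and BDL_H (-0.43, -0.38 and 0.43), of BDL and MDR (-0.20, -0.15 and -0.24) and of BDL_H and MDR_H (-0.03, -0.20 and -0.23) were not. Alternatives covered the pseudocount, filters, scaling, the libraries fitted, array weights, a replicate block, limma-voom and each library left out, and, chosen after seeing the data, BDL replicate 1 and BDL_H replicate 2 left out together. Promoters came from RefSeq and gene positions from GENCODE, both on GRCm38.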

Additional observations from a re-analysis of the deposited data

How the results depend on the processing

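The count of members called between MDR and BDL was 1, and it was 3 under median-of-ratios scaling, 4 under quantile normalization, 15 with array weights and 5 with BDL replicate 1 and BDL_H replicate 2 both left out. Between MDR_H and BDL_H it was 1, and in the same order 5, 3, 6 and 4. Leaving out each library gave 1 to 4 (2 without BDL replicate 1, 3 without BDL replicate 3, 4 without BDL_H replicate 2) and 0 to 3 (3 without BDL replicate 1, 0 without MDR_H replicate 1 or 2). Without BDL replicate 1 Dnajb9 was added in both comparisons and Wfs1 in the treated one, all lower. Hsp90b1 and Sec61b were added without BDL replicate 3, and Derl2, Ero1b and Sec61b without BDL_H replicate 2, all higher between MDR and BDL. The shares of all genes called with 1 library left out are not given here, so these counts have no background beside them. Both HDCA comparisons and their difference stayed at 0 members in every alternative run. The replicate block gave 1 and 1 for the model comparisons and changed no call. The split of all genes called higher and lower moved from 1630 and 116 to 640 and 486 under median-of-ratios scaling and 548 and 393 under quantile normalization (MDR against BDL), and from 795 and 101 to 333 and 372 and to 380 and 339 (MDR_H against BDL_H); with array weights it was 4201 and 746, and 2188 and 562. The cause was not tested. Herpud1 kept its sign in both model comparisons in every setting, while Derl2 and Dnajc3, called only under alternatives, were at -0.00 and -0.04 between MDR and BDL under median-of-ratios scaling. With 3 libraries a group, and Derl3 at as few as 27 reads, small differences were not detectable.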
